A study of Mus musculus with 28 samples.

Results

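MPP3 cells of Dnmt3a-mutant donor marrow were compared after growth in aged and in young recipient mice. The members are the 4 bulk RNA libraries of mutant MPP3 from aged recipients and the 3 from young recipients, chosen by the recipient age, donor genotype and cell type in the sample titles. They are 7 of the 28 libraries of the series. All 7 libraries came from C57BL/6 mice by their labels, except that aged replicate 4 carries the label C57BL/7. Marrow of young donors had been transplanted into CD45.1 recipients, and the donor cells were isolated again from the recipients' bone marrow 4 months later. The ages of donors and recipients in weeks, the mutant Dnmt3a allele and the promoter that drives any Cre in the mutant donors are not given in the labels. The control donors carried Mx1-Cre, a recombinase transgene under an interferon-inducible promoter. Each aged mutant library names 2 recipients and each young mutant library names 1, so recipient age and the number of animals behind a library cannot be told apart. The other groups used here are control MPP3 from aged (4 libraries) and young recipients (4), and mutant LT-HSC, the long-term haematopoietic stem cells, from aged (4) and young recipients (2). Aged control MPP3 libraries name 1, 1, 1 and 2 recipients and young control MPP3 libraries 1 each. The age changes of mutant and control MPP3 therefore also differ in the number of animals behind a library. They differ too in the sequencing pools inferred from the column names, since all 4 young control libraries fell in 1 pool.

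MPP3 are multipotent progenitors of the bone marrow that lie downstream of the stem cell and give rise mainly to granulocytes and monocytes. They are usually sorted as lineage-negative cells that carry KIT, SCA-1 and CD48 and lack CD150 and FLT3. DNMT3A is a de novo DNA methyltransferase whose gene is among the most frequently mutated in clonal haematopoiesis, the age-related expansion of blood cell clones. TNF receptor signalling in that condition is the subject named in the title of the series. TNF is an inflammatory cytokine that binds 2 receptors, TNFR1 (Tnfrsf1a) and TNFR2 (Tnfrsf1b), which signal through adaptor proteins and kinases to the NF-kB transcription factors.

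Total counts of the 7 libraries ranged from 5.71 to 10.79 M. Levels below are CPM, counts per M counts with edgeR's TMM library scaling, and changes are log2 values of aged minus young recipients with their standard error. Levels are not divided by gene length, so they are compared between libraries and not between genes. Dnmt3a itself was detected in every library, at 113, 106, 61.3 and 133 CPM in aged and 95.4, 104 and 74.0 CPM in young recipients. The groups overlapped (log2 change 0.18, SE 0.40, unadjusted p = 0.656). In the 8 control MPP3 libraries Dnmt3a ranged from 47.3 to 234 CPM, so its gene count does not separate the genotypes. Whether the mutant allele lowers the count is not given in the labels, so this count does not check the genotype label.

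The MPP3 label was compared with its defining genes. Mpo, the myeloperoxidase gene of the granulocyte-monocyte lineage, was at 7800 to 37900 CPM in the 7 libraries. Cd48 was at 22.8 to 80.1 CPM in all 7, and Slamf1, which encodes CD150, was at 0 in 4 libraries and at most 3.70 CPM in the other 3. Flt3 was at 29.6 to 127 CPM, and Ly6a, which encodes SCA-1, at 3.64 to 154 CPM. Markers of several other cell types were counted too. Summed plasma cell markers, mostly the antibody genes Igha and Igkc and the joining chain gene Jchain, were at 16270 to 45330 CPM in aged and 2688 to 44620 CPM in young libraries, with 15 of 15 markers counted. Mature neutrophil markers summed to 1205 CPM in aged replicate 4 and to 71.9 to 315 CPM in the other 6 libraries, with 14 of 15 counted and Ly6g at 0. Eosinophil markers summed to 670 CPM in young replicate 2 and to at most 55.9 CPM elsewhere, with 8 of 8 counted. Dendritic cell markers, led by the MHC class II chaperone gene Cd74, summed to 3451 CPM in young replicate 1 and to 535 to 1179 CPM in the other 6, with 12 of 12 counted. In young replicate 1 Cd74 gave 2285 CPM of that sum, and H2-Aa, H2-Ab1 and H2-Eb1 gave 535.1, 364.9 and 165.8 CPM. Ciita, Xcr1, Ccr9 and Siglech were at 55.78, 27.76, 15.99 and 1.407 CPM there, and Clec9a, Cd209a, Itgax and Batf3 at 0. B cell markers were also highest in that library, at 3299 CPM. The part of these transcripts in the results below was not tested.

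**Figure D1:**
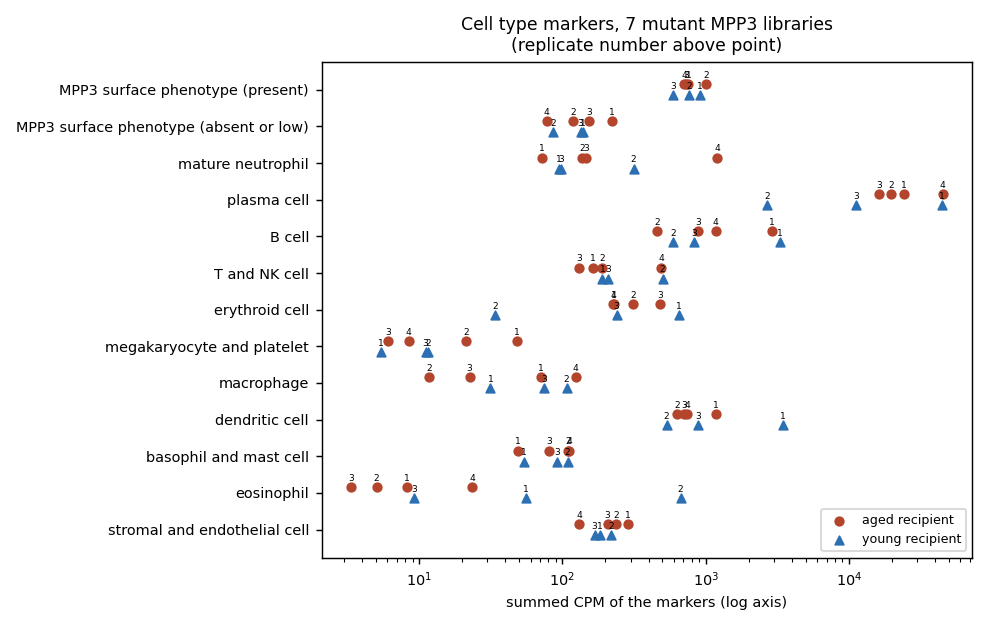
Summed CPM of 13 sets of cell type markers (log axis) in the 4 aged (circles) and 3 young (triangles) mutant MPP3 libraries, with the replicate number above each point. Aged replicate 4 stands at 1205 CPM for mature neutrophil markers, young replicate 2 at 670 CPM for eosinophil markers and young replicate 1 at 3451 CPM for dendritic cell markers. Most of that last sum is Cd74 (2285 CPM).

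No gene passed the test between aged and young recipients in mutant MPP3. Of 13933 genes tested with edgeR's quasi-likelihood test, 0 (0%) had an adjusted p under 0.05, and the smallest adjusted p was 0.523. At an unadjusted p under 0.05 there were 735 genes (5.28%), 367 higher (2.63%) and 368 lower (2.64%) in aged recipients. In 245 of those 735 genes one group had no library above 3 counts, against 622 of all tested genes. Among the 1772 genes with a mean of at least 100 CPM, 72 (4.06%) had an unadjusted p under 0.05, and the median standard error there was 0.352. CPM of the 4 aged and 3 young libraries did not overlap in 607 genes (4.36%), 276 higher (1.98%) and 331 lower (2.38%) in aged. By comparison, DESeq2 on the same 15 MPP3 libraries called 56 of 13646 genes (0.41%), 33 higher and 23 lower, and in 33 of the 56 one group had no library above 3 counts. limma voom called 0 (0%), and its genes with an unadjusted p under 0.05 split into 214 higher and 408 lower. The values below are therefore given with unadjusted p-values of edgeR's test. In this comparison the genes named by the rule in the methods had adjusted p-values of 0.911 or more.

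The aged libraries were no more alike than libraries of different groups, and the 3 young ones were slightly more alike. Pearson's r of log2 levels across genes ranged from 0.781 to 0.855 between aged libraries (median 0.804), from 0.824 to 0.855 between young libraries (median 0.83) and from 0.779 to 0.868 between aged and young libraries (median 0.823). These are values across genes, which are not independent replicates.

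**Figure D2:**
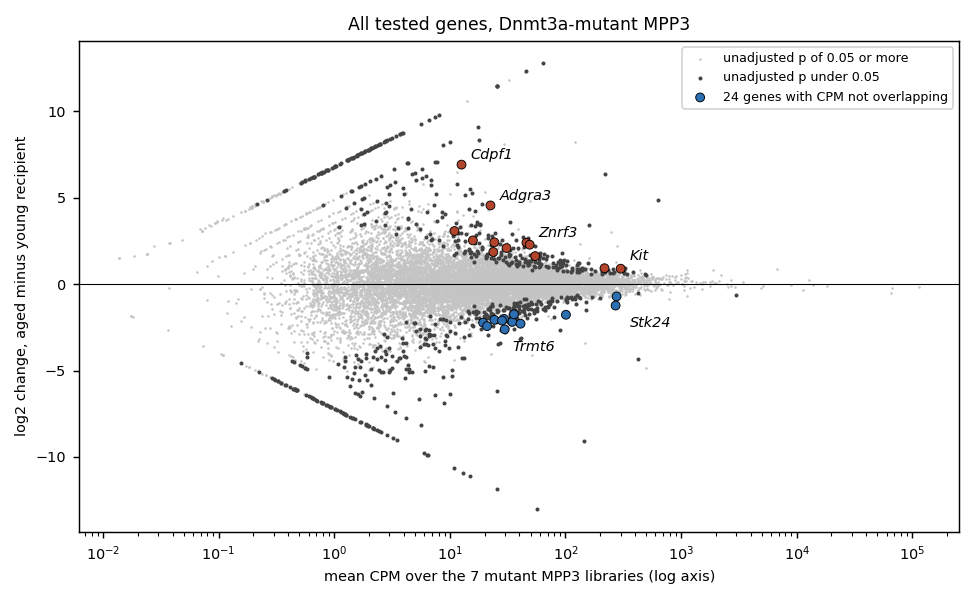
Log2 change (aged minus young recipient) of all 13933 tested genes in mutant MPP3 against their mean CPM over the 7 libraries (log axis). Dark points have an unadjusted p under 0.05, and circles mark the 24 genes with the smallest unadjusted p among genes of at least 10 CPM whose libraries do not overlap. The straight lines of points at both edges are genes with 0 counts in one group.

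Tnf, the ligand of both receptors, was at 33.7, 1.85, 6.38 and 1.92 CPM in the aged mutant libraries and at 1.66, 1.70 and 1.78 CPM in the young ones. All 4 aged libraries lay above all 3 young ones, but replicates 2 and 4 did so by a small margin (log2 change 2.67, SE 1.35, unadjusted p = 0.0639). Without aged replicate 1 the change was 0.97, and it was 2.89 and 1.86 within the 2 sequencing pools inferred from the column names. In control MPP3 Tnf was at 27.9, 6.21, 14.8 and 19.9 CPM in aged and 0.427, 0, 3.67 and 0.543 CPM in young recipients. Those groups did not overlap either (log2 change 3.90, SE 1.28, unadjusted p = 0.00687, adjusted p = 0.801 by edgeR), and the difference between the genotypes in this change was -1.23 (unadjusted p = 0.475). In mutant LT-HSC Tnf was at 10.4, 0, 0.154 and 1.96 CPM in aged and at 0 in both young libraries.

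The receptor genes did not separate the groups. Tnfrsf1a was at 22.6, 5.05, 43.2 and 31.8 CPM in aged and 30.6, 38.2 and 30.8 CPM in young recipients, so the young libraries lay within the aged range (log2 change -0.37, SE 0.65, unadjusted p = 0.574). Tnfrsf1b was at 139, 18.5, 35.9 and 35.0 CPM in aged and 19.1, 41.2 and 24.3 CPM in young recipients. Its log2 change of 1.02 (SE 0.67, unadjusted p = 0.148) rested on aged replicate 1, the library that also held the highest Tnf, and was 0.08 without it. That library also held B cell markers at 2908 CPM, against 458 to 1173 CPM in the other aged libraries and 320 to 784 CPM in control MPP3. Of the 14 markers 13 were matched by symbol, and all 13 had a count. Young replicate 1, at 3299 CPM of B cell markers, had Tnfrsf1b at 19.1 CPM and Tnf at 1.66 CPM. The part of B cell transcripts in the Tnf and Tnfrsf1b values was not tested. Over 9 tested TNF receptor family genes, 6 were positive and 3 negative, and 0 had an unadjusted p under 0.05 (against 5.28% of all tested genes). The median change was 0.10 against 0.05 over all tested genes.

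Of the other TNF family ligands, Tnfsf9, which encodes the 4-1BB ligand, was at 0 in all 4 aged libraries and at 3.97, 1.21 and 2.80 CPM in the young ones (unadjusted p = 0.00525). Ltb, which encodes lymphotoxin beta, was at 0 in 3 aged libraries and 0.865 CPM in the other, against 17.7, 0.242 and 3.31 CPM in young recipients (unadjusted p = 0.0287). Tnfsf10, the gene of the death ligand TRAIL, was at 135, 43.0, 31.2 and 30.5 CPM in aged and 35.6, 26.4 and 69.0 CPM in young recipients, with overlapping groups. Of 6 tested ligand genes, 3 were positive and 3 negative.

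No gene of the signalling steps below the receptors had an unadjusted p under 0.05, against 5.28% of all tested genes. All 26 adaptor and kinase genes of the list were tested, and 15 were positive (median change 0.07). Tradd, the adaptor that binds TNFR1, was at 0, 0, 2.18 and 4.42 CPM in aged and 8.96, 16.2 and 5.35 CPM in young recipients (unadjusted p = 0.127). It was the 1 gene of these 26 whose groups did not overlap, against 4.36% of all tested genes. Tab2, a scaffold of the kinase TAK1, was at 295, 312, 193 and 226 CPM in aged and 202, 147 and 192 CPM in young recipients (log2 change 0.51, SE 0.26, unadjusted p = 0.0641). Ripk1, the kinase at the TNFR1 complex, varied from 4.20 to 177 CPM among the aged libraries. Of 14 NF-kB subunit and inhibitor genes, 4 were positive and 10 negative, with a median change of -0.23, or 0.13 without young replicate 1. In control MPP3 the median of the same list was 0.34. Tnip1, which encodes a partner of the NF-kB inhibitor A20, was at 0.523, 8.59, 8.90 and 23.5 CPM in aged and 26.4, 23.9 and 30.1 CPM in young recipients, without overlap (unadjusted p = 0.108).

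NF-kB acts on its targets through short kB sites, and the gene list of NF-kB responses was compared with promoter sequences to show what such genes carry. The motif searched was GGG, any 2 bases, then TTTCC, on both strands (GGAAA, any 2 bases, then CCC on the other). It was present in the window from 250 bases before to 50 after the gene start in 12 of 76 list genes with a RefSeq promoter (15.8%), and in 1.89% of all 27025 genes in that table (1.63% of 32851 promoters). The 130 bases before the start are shown 5′ to 3′ on the gene's strand for Cxcl2, a neutrophil chemokine, and for Nfkbia and Tnfaip3, which encode the feedback inhibitors IkBa and A20. Capitals mark the motif. The coordinates are of GRCm38.p6: Cxcl2 at chr5:90903769-90903898 (+), Nfkbia at chr12:55492648-55492777 (-) and Tnfaip3 at chr10:19015411-19015540 (-).
Cxcl2: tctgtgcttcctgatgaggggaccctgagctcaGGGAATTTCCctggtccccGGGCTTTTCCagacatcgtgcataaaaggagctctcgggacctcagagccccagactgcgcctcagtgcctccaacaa
Nfkbia: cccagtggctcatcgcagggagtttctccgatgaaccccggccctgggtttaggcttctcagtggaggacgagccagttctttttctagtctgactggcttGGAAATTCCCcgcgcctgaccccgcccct
Tnfaip3: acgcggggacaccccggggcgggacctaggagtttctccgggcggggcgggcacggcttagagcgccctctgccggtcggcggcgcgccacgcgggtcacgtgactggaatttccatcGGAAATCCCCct
The Cxcl2 window holds 2 matches and the others 1 each. A match is a sequence description and not a bound site.

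Of these 3 genes, Cxcl2 was at 0, 123, 0 and 2.50 CPM in the aged libraries and at 0, 0.121 and 0.127 CPM in the young ones (unadjusted p = 0.00307). It was high in aged replicate 2 alone, and 2 aged libraries were at 0. Nfkbia was at 10.3, 14.7, 36.3 and 13.6 CPM in aged and 42.6, 5.82 and 18.7 CPM in young recipients (log2 change -0.26, SE 0.72). Tnfaip3 was at 56.7, 83.9, 53.1 and 62.1 CPM in aged and 60.0, 21.3 and 43.7 CPM in young recipients (log2 change 0.62, SE 0.54), and both genes overlapped between groups. Of the 9 tested list genes with the motif, 6 were positive, against 52.7% of all tested genes. Their median change of 0.35 was that of Csf1 (SE 1.53), and the changes ran from -1.59 to 8.31. The 1 of them with an unadjusted p under 0.05 by edgeR's test was Cxcl2. Of the 55 tested genes with a promoter but no match, 27 were positive, with a median of -0.09 and 3 at an unadjusted p under 0.05. The difference between the 2 sets was not tested.

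Over the whole list of NF-kB response genes, 83 were tested, 44 positive and 39 negative. The median change was 0.03, and 3 genes had an unadjusted p under 0.05 in each direction, 6 of 83 against 5.28% of all genes. The list's mean level per library, as log2(CPM + 2), was 4.26 ± 0.17 (SD, n = 4) in aged and 4.22 ± 0.18 (SD, n = 3) in young recipients. Atf3, a stress-induced transcription factor gene, was at 7.84, 0, 0 and 0.192 CPM in aged and at 0 in all 3 young libraries. Egr3, an immediate-early gene, was at 0 in all 4 aged libraries and at 13, 0.485 and 0 CPM in young ones. Ptgs2, the prostaglandin synthase gene, was chosen after its values were seen. It was at 0, 24.6, 13.9 and 22.5 CPM in aged and 0.128, 0 and 2.55 CPM in young recipients (unadjusted p = 0.0347). Among the 64 interferon response genes tested, 1 was higher and 2 were lower at an unadjusted p under 0.05. That share of 4.69% was no larger than the 5.28% of all tested genes, and the median change was 0.12.

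**Figure D3:**
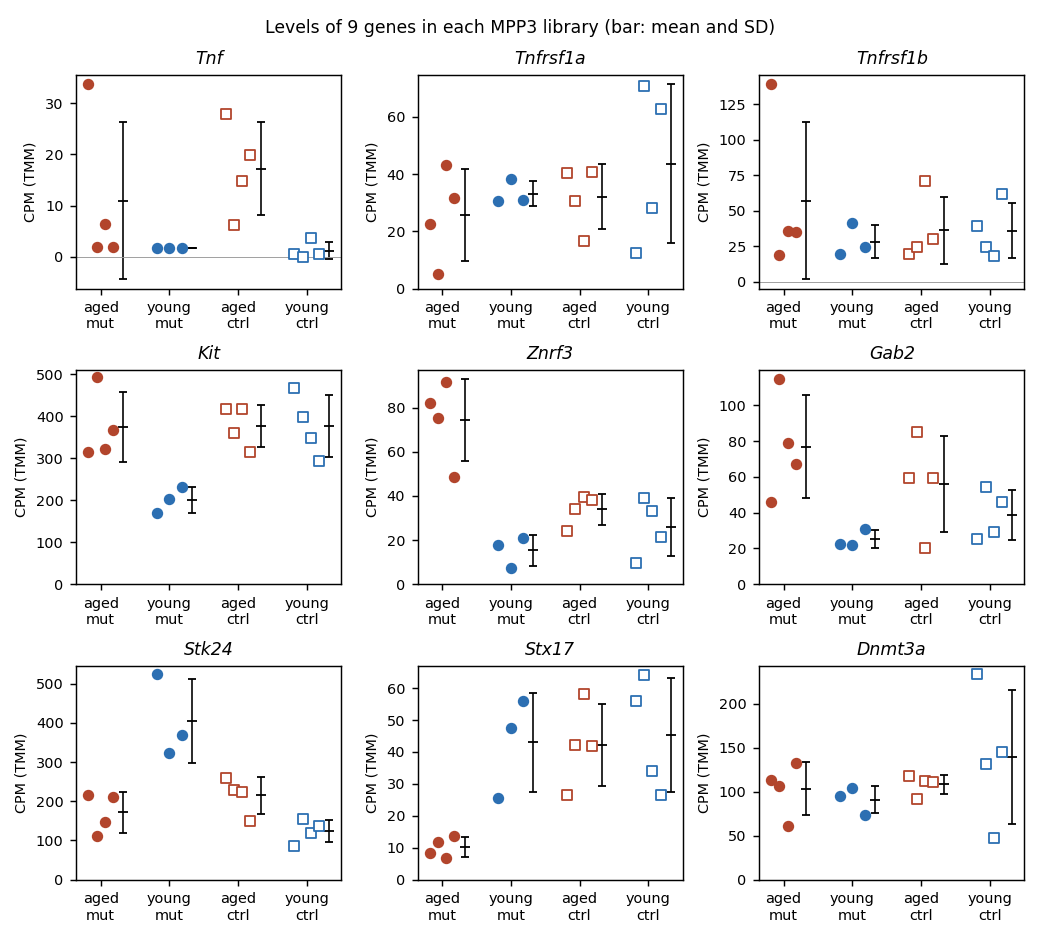
CPM of 9 genes in each of the 15 MPP3 libraries, with mean and SD beside each group (filled circles, mutant; open squares, control; red, aged; blue, young; the horizontal line marks 0). Kit and Znrf3 do not overlap between aged and young mutant libraries and are higher in aged, Stk24 and Stx17 are lower, and Tnfrsf1a and Dnmt3a overlap.

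Kit, the gene of the stem cell factor receptor and of the surface marker used to sort these cells, lay at chr5:75574916-75656722 of GRCm38 and was the best-counted gene among the 12 higher ones, with 1327 to 3823 counts. It was at 314, 494, 323 and 368 CPM in aged and 170, 203 and 232 CPM in young recipients, with every aged library above every young one (log2 change 0.89, SE 0.25, unadjusted p = 0.0019). Within the inferred pools the change was 1.23 and 0.57. In control MPP3 Kit ranged from 314 to 417 CPM in aged and from 294 to 468 CPM in young recipients, with a change of 0.00 (SE 0.22), and the difference between the genotypes was 0.89 (unadjusted p = 0.0145). The young mutant libraries thus lay below all 8 control libraries, while the aged mutant libraries lay across the control range. The 12 higher genes were picked on the mutant change, which is part of the difference between the genotypes, so the p of that difference carries the selection. All 4 young control libraries were in inferred pool 2, while the mutant libraries of both ages were in both pools. Of the 12, 8 had an unadjusted p under 0.05 for the difference by edgeR's test, against 5.4% of all tested genes. In LT-HSC of mutant marrow the change was -0.20 (SE 0.42).

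Stk24 showed the reverse arrangement. It encodes the serine/threonine kinase MST3 (chr14:121286343-121380011), and was at 217, 111, 147 and 212 CPM in aged and 524, 322 and 368 CPM in young recipients (log2 change -1.24, SE 0.30, unadjusted p = 0.000636). The young mutant libraries lay above all 8 control libraries, which ranged from 85.5 to 260 CPM. In control MPP3 the change was positive, 0.80 (SE 0.28, unadjusted p = 0.0114), and the difference between the genotypes was -2.03 (unadjusted p = 0.000103, adjusted p = 0.861 by edgeR). As with Kit, the p of that difference carries the selection on the mutant change. The uneven pools of the control libraries apply to that difference as well. Of the 12 lower genes, 7 had an unadjusted p under 0.05 for the difference. DESeq2 gave Stk24 an adjusted p of 0.0412 in mutant MPP3. In mutant LT-HSC Stk24 was at 1120, 189, 198 and 397 CPM in aged and 168 and 144 CPM in young recipients, a change of 1.61 (SE 0.72).

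The other higher genes are given one by one, since no list was tested on them. Znrf3, a ubiquitin ligase gene that restrains Wnt receptors, was at 81.9, 75.1, 91.7 and 48.7 CPM in aged and 17.7, 7.39 and 20.8 CPM in young recipients (log2 change 2.28, SE 0.55, unadjusted p = 0.00056). All 4 aged mutant libraries exceeded all 8 control libraries, whose highest was 39.5 CPM. Gab2, which encodes an adaptor below cytokine receptors, was at 46.2, 115, 79.1 and 67.3 CPM in aged and 22.3, 21.9 and 30.8 CPM in young recipients (log2 change 1.62, SE 0.50). Pik3r4, the regulatory subunit of the class III phosphoinositide 3-kinase that acts in autophagy, was at 20.3 to 86.0 CPM in aged and 6.18 to 13.6 CPM in young recipients. Adgra3, an adhesion G protein-coupled receptor gene, was at 114, 19.0, 13.1 and 5.96 CPM in aged and 0.640, 0.364 and 3.82 CPM in young recipients, and was highest in aged replicate 1. Its change of 4.55 (SE 1.26) was 2.97 without that library.

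The other higher genes belonged to different functions. Otud6b encodes a deubiquitinase and ranged from 29.9 to 144 CPM in aged and from 6.14 to 21.7 CPM in young recipients (log2 change 2.40, SE 0.59). Prps1, which makes the sugar precursor of nucleotides, ranged from 25.8 to 52.1 CPM in aged and from 0.640 to 14.2 CPM in young recipients. Cntrl, a centrosome protein gene, was at 266, 312, 312 and 202 CPM in aged and 164, 98.4 and 170 CPM in young recipients, with the second smallest standard error of the 12 (log2 change 0.92, SE 0.29). Zcchc9 (a zinc finger gene), Lhfpl2, Cdpf1 and the noncoding Platr25 completed the group. The changes of Zcchc9, Lhfpl2 and Platr25 were 1.86, 2.53 and 3.07. Cdpf1 was at 9.57 to 47.0 CPM in aged and at 0, 0.242 and 0.255 CPM in young recipients, where no library held over 3 counts. Of these 12 genes, 8 had a change of the same sign in control MPP3. An unadjusted p under 0.05 was seen there in 0, against 6.12% of all tested genes.

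The lower genes are given next, again as single genes. Xab2, a factor of transcription-coupled repair and splicing, was at 5.09 to 20.1 CPM in aged and 28.5 to 72.2 CPM in young recipients. Stx17, a syntaxin gene for the fusion of autophagosomes with lysosomes, had the smallest p of the named genes. It was at 8.49, 11.8, 6.89 and 13.8 CPM in aged and 25.7, 47.4 and 55.9 CPM in young recipients (log2 change -2.06, SE 0.49, unadjusted p = 0.000521), and all 4 aged mutant libraries lay below all 8 control libraries, whose lowest was 26.5 CPM. Trmt6, part of a tRNA methyltransferase, was at 4.21 to 14.7 CPM in aged and 37.4 to 76.2 CPM in young recipients (log2 change -2.61, SE 0.70). Dync1h1, the heavy chain of the dynein motor, was well counted at 216, 233, 183 and 238 CPM in aged and 371, 361 and 338 CPM in young recipients (log2 change -0.71, SE 0.22).

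Acadvl, the first enzyme of mitochondrial oxidation of very long fatty acids, was at 4.57 to 11.8 CPM in aged and 20.5 to 46.9 CPM in young recipients. It shares 42.9% of its exon bases with Dvl2 on the opposite strand, and the strand setting of the counting is not given in the sources used here. Lrrc8a, a volume-regulated anion channel gene, was at 6.05 to 22.4 CPM in aged and 39.1 to 98.3 CPM in young recipients, and shares 68.3% of its exon bases with other annotated genes. Xab2 shares 12.2% with Camsap3 and Kcnh7 4.57% with Gca, so reads of these pairs cannot be told apart with certainty. Dgkz, a diacylglycerol kinase gene, was at 23.9 to 75.7 CPM in aged and 80.2 to 322 CPM in young recipients, with Kcnh7, Specc1 and Tmed8 also in the group. Of the 12 lower genes, 7 had the same sign in control MPP3. The 1 with an unadjusted p under 0.05 there (against 6.12% of all tested genes) was Stk24, in the opposite direction. DESeq2 called 13 of the 62 named genes at an adjusted p under 0.05, against 56 of 13646 genes (0.41%) over all. Most named genes were picked by a small edgeR p on the same libraries, so that count follows from the choice and is not separate support. Of the 24 genes the DESeq2 calls included Znrf3, Otud6b, Cdpf1, Adgra3 and Platr25 among the higher ones and Stx17, Lrrc8a, Trmt6 and Stk24 among the lower ones.

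**Figure D4:**
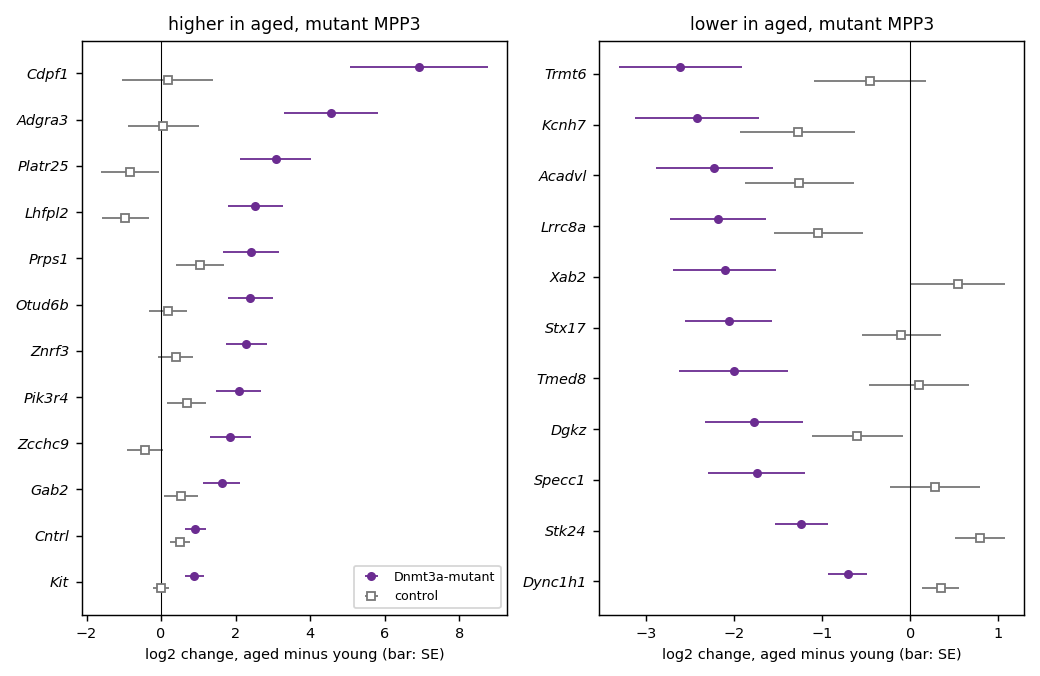
Log2 change, aged minus young recipient, with its standard error, of the 12 higher and of 11 lower genes in mutant (filled circles) and control MPP3 (open squares). The genes were picked on the mutant values, so the distance of the mutant points from 0 is a description; Stk24 is at -1.24 in mutant and 0.80 in control cells, and Kit at 0.89 and 0.00.

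The 24 genes were also set against the range of the 8 control MPP3 libraries. Young mutant libraries stood wholly outside that range for 8 of the 24 genes: Kit, Lhfpl2, Otud6b, Pik3r4, Platr25 and Zcchc9 below it, and Stk24 and Tmed8 above it. Aged mutant libraries did so for 2, Znrf3 above and Stx17 below. For the remaining 14 genes neither group stood outside. These counts were taken after the values were seen, 3 libraries stand outside a range more easily than 4, and no young control library was in the sequencing pool of young mutant replicate 1, so the counts carry no test.

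The changes in mutant MPP3 were compared over all genes with those in the other groups. Control MPP3 had 0 genes at an adjusted p under 0.05 by edgeR's test and 853 (6.12%) at an unadjusted p under 0.05, 420 positive (3.01%) and 433 negative (3.11%). CPM did not overlap there in 572 genes (4.11%), DESeq2 called 31 and limma voom 0, with a voom split of 550 positive and 317 negative at an unadjusted p under 0.05. The difference between the genotypes in the age change had 0 genes at an adjusted p under 0.05 and 752 (5.4%) at an unadjusted p under 0.05, 405 positive (2.91%) and 347 negative (2.49%). DESeq2 called 41 for it and limma voom 0, with a voom split of 207 positive and 475 negative. Across the 13933 genes, r between the changes in mutant and in control MPP3 was 0.03, and across 13216 genes r between the changes in mutant MPP3 and mutant LT-HSC was -0.004. These comparisons share no library, though the MPP3 and LT-HSC libraries of mutant marrow come mostly from the same recipients. The number of recipients per aged library also differs between mutant and control MPP3, as does the spread of libraries over the inferred pools. In mutant LT-HSC 0 of 14588 genes had an adjusted p under 0.05 by edgeR's test, and 943 (6.46%) had an unadjusted p under 0.05, while DESeq2 called 317 and limma voom 3.

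**Figure D5:**
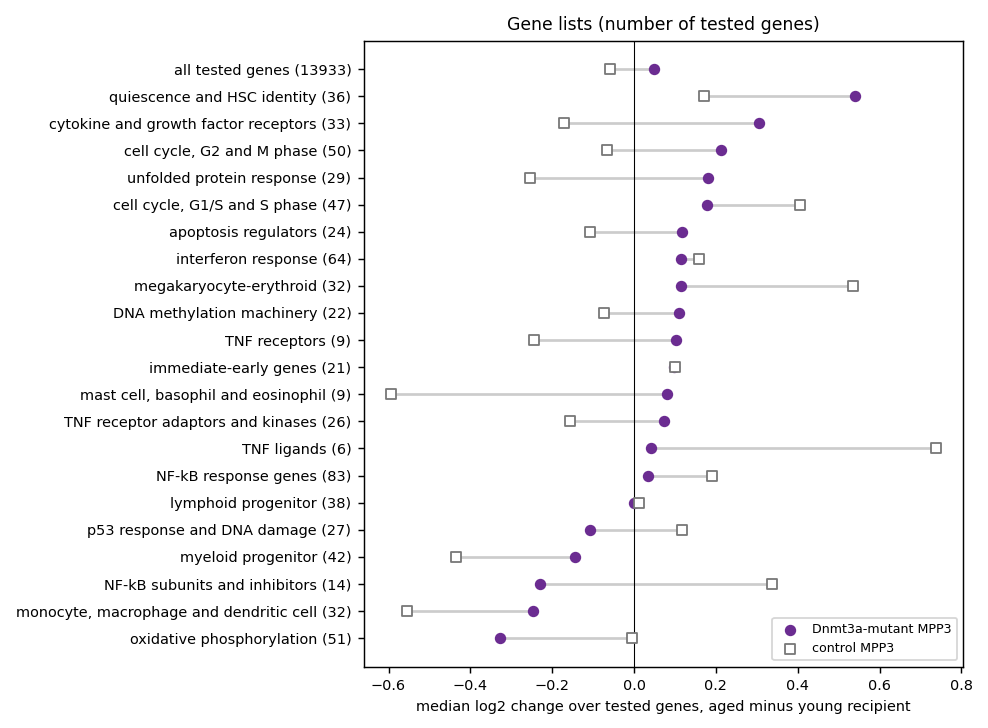
Median log2 change (aged minus young recipient) over the tested genes of 21 gene lists, with the number tested, in mutant (filled circles) and control MPP3 (open squares); the top row gives all tested genes. The largest mutant medians are 0.54 for quiescence and HSC identity and -0.33 for oxidative phosphorylation.

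Of 21 gene lists, the highest median change was that of quiescence and HSC identity genes, at 0.54 with 24 of 36 genes positive, against 52.7% of all tested genes. It was -0.10 without aged replicate 2. In that list, 3 genes were higher and 1 lower at an unadjusted p under 0.05 (11.1% in all, against 5.28% of all tested genes). The list's median is unstable and its mean levels overlapped between the groups. Clu, the clusterin gene, was at 15.5, 0, 0 and 0.673 CPM in aged and at 0 in young recipients. Fgd5, a stem cell marker gene, was at 0 in 4 aged and 2 young libraries and at 13.8 CPM in young replicate 3. In control MPP3 the list's median was 0.17.

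Oxidative phosphorylation genes had the lowest median, -0.33, with 16 of 51 positive and 35 negative. All 18 alternatives gave a negative median, from -0.48 to -0.04, and the control median was -0.0047. The list's mean level per library was 4.305, 4.403, 5.01 and 5.35 in aged and 5.01, 5.16 and 5.17 in young recipients on the log2(CPM + 2) scale. Aged replicates 1 and 2 were lowest and aged replicate 4 was highest, so the groups overlapped. Ndufb8, a subunit of complex I, was at 8.62, 3.54, 8.06 and 18 CPM in aged and 23.0, 71.4 and 18.6 CPM in young recipients (unadjusted p = 0.0129). Ndufb6, another complex I subunit, went the other way, at 2.70 to 13.9 CPM in aged and 0.121 to 1.40 CPM in young recipients, and shares 39% of its exon bases with Smim27.

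Proliferation genes had overlapping mean levels in the groups. Of 50 genes of G2 and M phase, 31 (62%) were positive, against 52.7% of all tested genes, with a median of 0.21. At an unadjusted p under 0.05 there were 2 (4%), all higher, which is no larger a share than the 5.28% of all tested genes. Hmgb2, a chromatin protein gene of dividing cells, was at 644, 244, 309 and 434 CPM in aged and 222, 206 and 225 CPM in young recipients (log2 change 0.91, SE 0.32, unadjusted p = 0.00989). Ckap2, a spindle protein gene, was at 147, 46.7, 51.9 and 46.9 CPM in aged and 26, 45.9 and 18.9 CPM in young recipients, with a change of 1.27 (SE 0.54) that was 0.68 without aged replicate 1. Of 47 genes of G1/S and S phase, 31 were positive with a median of 0.18. Gins1, part of the replicative helicase, was at 22.7, 35.7, 21.7 and 8.27 CPM in aged and 6.40, 5.82 and 6.24 CPM in young recipients.

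Genes of monocytes, macrophages and dendritic cells had a negative median change that came near 0 without 1 young library. Of these 32 genes, 22 were negative, 5 were lower and 0 higher at an unadjusted p under 0.05 (against 2.64% and 2.63% of all tested genes), and the median was -0.25, or -0.04 without young replicate 1. H2-Aa, an MHC class II chain gene, was at 169, 47.5, 62.5 and 59.4 CPM in aged and 535, 56.6 and 122 CPM in young recipients. H2-Eb1 was at 15.9, 3.20, 18.6 and 7.6 CPM in aged and 166, 7.63 and 31.3 CPM in young recipients. Without young replicate 1 the changes of H2-Aa and H2-Eb1 were -0.081 and -0.78. Young replicate 1 was the highest library for both and also held the highest dendritic cell and B cell marker sums of the 7, 3451 and 3299 CPM. H2-Aa and H2-Eb1 are themselves part of the dendritic cell sum, most of which was Cd74 (2285 CPM). In bulk samples fewer cells of a type and less RNA per cell cannot be told apart. The median in control MPP3 was -0.55.

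The lineage lists had medians from -0.25 to 0.11. Of 42 myeloid progenitor genes, 18 were positive, with a median of -0.15 that ran from -0.68 to 0.22 over the alternatives. Elane, the neutrophil elastase gene chosen after its values were seen, was at 780, 809, 2160 and 6740 CPM in aged and 2370, 3320 and 2840 CPM in young recipients. The azurophil granule protease genes Prtn3 and Ctsg, chosen likewise, also were lowest in aged replicates 1 and 2 and highest in aged replicate 4 (Prtn3 103, 238 and 1150 CPM, Ctsg 106, 185 and 820 CPM). Mature neutrophil markers were highest in that same library, and their part in these levels was not tested. Csf2rb2, a receptor chain for interleukin-3, was at 0.784, 2.36, 3.19 and 6.44 CPM in aged and 2.30, 24.8 and 7.26 CPM in young recipients. Of 38 lymphoid progenitor genes 19 were positive. Lck, a T cell kinase gene, was at 13.7, 21.1, 5.71 and 6.83 CPM in aged and 0, 0.242 and 0.255 CPM in young recipients (unadjusted p = 0.00343). Of 16 T and NK cell markers 12 had a count, and their sum was 131 to 490 CPM in aged and 190 to 502 CPM in young libraries, most of it from Nkg7 (109.2 to 491.7 CPM). The defining genes Cd3g, Prf1, Trac and Trbc2 were at 0 in all 7 libraries. Thy1 (12.28 and 16.01 CPM) and the NK cell receptor gene Ncr1 (6.401 and 33.02 CPM) were highest in aged replicates 1 and 2. Those were the libraries with the most Lck. Cd8b1 was also highest there (6.663 and 5.054 CPM), and Klrb1c in aged replicate 1 (14.37 CPM). Other markers went otherwise. Trbc1 was highest in young replicate 1 (9.595 CPM), and Cd4, Cd8a and Cd3e in young replicate 3 (6.878, 3.949 and 2.93 CPM). Cd3d and Gzma were highest in aged replicate 3 (1.176 and 4.199 CPM), and Nkg7 was lowest in aged replicate 1. The part of such cells in the Lck values was not tested. Of 33 cytokine receptor genes 20 were positive, with a median of 0.30 that ran from -0.13 to 0.34 over the alternatives and was negative in 2 of 18. Il18r1, an interleukin-18 receptor chain, was at 31.2, 0.505, 0.840 and 2.79 CPM in aged and 0, 0.364 and 0 CPM in young recipients. Itga6, an integrin chain, was at 67.5, 175, 106 and 70.3 CPM in aged and 47.6, 71.5 and 57.3 CPM in young recipients, with a change of 0.83 (SE 0.39) that was 0.47 without aged replicate 2. Of 22 DNA methylation genes 13 were positive and 0 had an unadjusted p under 0.05 (against 5.28% of all tested genes). Their changes ran from -0.63 to 1.63.

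Genes of cell stress and survival gave few differences. Of 24 apoptosis regulators 13 were positive, with a median of 0.12. Bid, whose product links death receptors to mitochondria, was at 149, 59.8, 44.7 and 57.4 CPM in aged and 32.6, 35.3 and 44.6 CPM in young recipients (log2 change 1.05, SE 0.50, unadjusted p = 0.04996). Without aged replicate 1 the change of Bid was 0.53, and within pool 2 it was 0.16. Its groups did not overlap, but aged replicate 3 exceeded the highest young library only narrowly, and it shares 17.7% of its exon bases with Bcl2l13. Of 27 genes of the p53 response and DNA damage, 13 were positive and 14 negative, with 2 lower at an unadjusted p under 0.05 (7.41%, against 5.28% of all tested genes in either direction). Zmat3, a p53 target that encodes an RNA-binding protein, was at 9.01, 3.37, 11.6 and 15.2 CPM in aged and 111, 2.79 and 23.2 CPM in young recipients, with overlapping groups. Of 29 genes of the unfolded protein response 17 were positive (median 0.18). Chac1, which encodes a glutathione-degrading enzyme, was at 0, 0, 11.6 and 2.79 CPM in aged and at 0 in all 3 young libraries.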

How the data were processed

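Polyadenylated RNA of sorted bone marrow cells was sequenced. The authors deposited 1 table of whole-number counts per Ensembl gene (38924 genes, 28 libraries), not normalized. Per the submitters' processing notes, RSEM 1.2.12, Bowtie2 2.2.0, SAMtools 0.1.18, edgeR 3.5.3 and GRCm38 were used, with no role or order; whether the counts are rounded RSEM estimates, the strand setting and the annotation are not given in the sources used here. Symbols came from GENCODE M21 (96.62% of genes, 99.21% of counts), and promoters from RefSeq (GRCm38.p6).

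Counts were fitted with edgeR 4.0.16 in R 4.3.3 (filterByExpr, TMM, glmQLFit robust, glmQLFTest, 2-sided) on all 15 MPP3 libraries with 1 coefficient per group, so that the control groups share the estimate of spread. LT-HSC (13 libraries) were fitted apart. The common coefficient of biological variation was 0.882. P-values were adjusted by Benjamini-Hochberg over all tested genes, with a threshold of 0.05. The fit was tested on simulated data with 50 changed genes of each size. It called 0 of 50 at a log2 change of 1, 8 (16%) at 2, and 28 (56%) at 4 and at 6. It also called 2 unchanged genes. Changes of the smaller sizes would thus mostly go uncalled in the mutant MPP3 comparison. Alternatives used DESeq2 1.42.0, limma 3.58.1 (voom), other scaling, filters, libraries, pools and blocks; figures used matplotlib 3.10.9.

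Titles name the recipients, so the libraries of a group are of separate animals; p-values measure the spread between them. Sequencing pools were inferred from the column names. Of the mutant MPP3 libraries, pool 1 held aged replicates 1, 2 and 4 and young replicate 1, and pool 2 the others. Of the control MPP3 libraries, pool 1 held aged replicates 1 and 2. Pool 2 held aged control replicates 3 and 4 and all 4 young control libraries. In each pool 1 mutant group has a single library, assumed to vary like the rest.

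The members and gene lists were chosen with earlier results of these data known. Named genes are Dnmt3a, Tnf, both receptors and 5 label checks; 12 genes each way with the smallest unadjusted p among symbols that are not predicted, pseudogene, mitochondrial or immunoglobulin genes, with a mean of at least 10 CPM and no overlap; and up to 2 genes each way per list at an unadjusted p under 0.05. Further genes of the TNF pathway show its range. A floor of 3 counts per library was used. Total counts limit precision mainly for genes of few CPM. Some results are not reported here.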

Additional observations from a re-analysis of the deposited data

Results flagged for a closer look

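In groups of 4 libraries, the highest or lowest library was set against the others by Dixon's criterion (the gap to the nearest library over the whole range). Of 121 such groups, 21 were beyond it (17.4%), where chance gives about 1 in 20; CPM of low genes are skewed, which the criterion does not allow for. The 3 young mutant libraries are too few for it.

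Aged mutant replicate 1 was far from the other 3 for 10 results, among them both the ligand and a receptor: Tnf at 33.7 CPM and Tnfrsf1b at 139 CPM. The others were Adgra3 (114 CPM), Bid (149 CPM), a pro-apoptotic BH3 gene, Ckap2 (147 CPM), H2-Aa (169 CPM), Il18r1 (31.2 CPM), Clu (15.5 CPM), Atf3 (7.84 CPM) and Klf1, which was at 0.131 CPM there and 0 in the other 3.

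Aged mutant replicate 2 stood apart for Cxcl2 (123 CPM), for the vesicle GTPase gene Rab27b (65.4 CPM), for the mean log2 level of the quiescence and HSC identity list (4.69) and for the summed genes of the MPP3 surface phenotype (1014 CPM). Aged mutant replicate 3 stood apart for Slamf1 (3.7 CPM).

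Aged mutant replicate 4 stood apart for the summed markers of mature neutrophils (1205 CPM) and of T and NK cells (490 CPM). Of the latter Nkg7 alone, also a gene of myeloid progenitors, gave 473.9 CPM, and young replicate 2 was higher still at 502 CPM, with Nkg7 at 491.7 CPM. Cd83 (0.0962 CPM), Ltb (0.865 CPM) and Wfdc17 (0.673 CPM) were at 0 in the other 3 aged libraries. Among the control groups of Kit, Stk24 and Tnf, young control replicate 3 stood apart for Tnf (3.67 CPM).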

How the results depend on the processing

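With edgeR 0 genes were called in mutant MPP3, against 56 with DESeq2. Leaving out 1 library gave 0 to 1 calls: Rps6-ps4, a pseudogene, without aged replicate 4, and Ighv8-12 without young replicate 2. Within pool 1 the only young library was young replicate 1, which had the highest immunoglobulin share of the 7 (5.46%). The immunoglobulin V genes Ighv9-3 (heavy chain) and Igkv8-24 (light chain) had log2 changes of -14.4 and -14.9 there, which rest on that library. Counts at an unadjusted p under 0.05 by edgeR's test were 735 of 13933 tested genes in the main fit. They became 1291 of 20595 with every gene of at least 1 count and 445 of 9896 with a mean of at least 50 counts. In the 7 mutant libraries alone they became 343 of 12300, a smaller share than in the main fit. Without aged replicate 4 they split into 437 higher and 599 lower of 13813. The median change of all tested genes ran from -0.11 to 0.27 over the alternatives. In control MPP3 DESeq2 called 31, and the counts at an unadjusted p under 0.05 (853) became 1638 and 567 under the 2 filters. For the difference between genotypes DESeq2 called 41, leaving out 1 library gave 0 to 1 (Rps6-ps4 without aged mutant replicate 4), and the filters gave 1407 and 435. In LT-HSC, alternatives chosen after seeing the data called 317 (DESeq2) and 3 (limma voom). Replicate numbers name different animals, and deviations of same-numbered mutant libraries correlated at 0.114, 0.0302 and -0.00593; with the replicate block 0 genes were called in each MPP3 comparison, with 691 (mutant), 732 (control) and 732 (difference) at an unadjusted p under 0.05.

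The sign of the 24 genes picked by p and overlap is largely set by that choice and says nothing of stability; their sizes moved, as for Otud6b (0.82 to 3.78), Dgkz (-2.76 to -0.65) and Prps1 (1.46 to 5.96). Over 18 alternatives the median of all lists but 3 (apoptosis regulators, oxidative phosphorylation, and monocytes, macrophages and dendritic cells) changed sign at least once. Signs turned for Cd48 (-0.00431 in mutant libraries alone, -0.25 with pool as covariate, -0.60 and -0.0306 within pools 1 and 2, -0.32 to 0.67 over left-out libraries), Flt3 (-0.23 with voom, -0.14 to 0.36), Mpo (0.12 within pool 1, -0.83 to 0.11), Slamf1 (-1.04 with the replicate block, -1.93 without aged replicate 3, to 6.00) and Cd83 (1.5 without young replicate 1, down to -7.76). Within pool 1 they turned for Csf2rb2 (0.52), Oas2 (0.26) and Wfdc17 (4.11), and within pool 2 for Cxcl2 (-3.09), Dnmt3a (-0.53) and Tnfrsf1a (0.32). The cause was not tested. Atf3, Cd83 and Clu (pool 2), Fgd5 (pool 1 and without young replicate 3) and Ear1 (without young replicate 2) had no count there and gave no value. With a pseudocount of 0.5 no list level changed sides of the overlap. At a common coefficient of variation of 0.882, the median standard error was 0.858 over all tested genes.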

Other observations

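Antibody V genes held the smallest p of the comparison. Ighv9-3, a heavy chain V gene, was at 0 in all 4 aged mutant libraries and at 334, 54.5 and 6.88 CPM in the young ones (unadjusted p = 3.75e-05, adjusted p = 0.523 by edgeR), and at 0 in all 8 control libraries. Of 39 V genes tested, 7 were lower and 2 higher in aged at an unadjusted p under 0.05 (against 2.64% and 2.63% of all tested genes), and Ighv9-3 was the 1 gene whose CPM did not overlap, against 4.36% of all tested genes. Single V genes were high in single libraries: Ighv14-3 was at 956 CPM in young replicate 1, at 60.4 CPM in young replicate 3 and at 0 in young replicate 2. The constant region genes Igha and Igkc overlapped between aged and young libraries. In the young libraries both were highest in replicate 1 and lowest in replicate 2, as was Ighv14-3. Igha was at 7880, 10100, 9180 and 27600 CPM in aged and 28800, 513 and 5700 CPM in young recipients (log2 change 0.23, SE 1.08). Igkc was at 6700, 7660, 4380 and 14500 CPM in aged and 9920, 298 and 3640 CPM in young recipients (log2 change 0.85, SE 1.13), and immunoglobulin genes held 1.67% to 4.79% of counts in aged and 0.251% to 5.46% in young libraries. Reads may be split among V genes of similar sequence.

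Granule genes of mature cells marked single libraries. Ngp and Ltf, secondary granule genes of neutrophils, were at 338 and 80.6 CPM in aged replicate 4, at most 0.131 CPM in the other aged libraries and at most 8.85 CPM in the young ones, while Ly6g was at 0 throughout. Epx, the eosinophil peroxidase gene, was at 154 CPM in young replicate 2 and at 0 in the other 6 libraries. In the LT-HSC libraries of the same recipients, mature neutrophil markers summed to 17220 CPM in aged replicate 4 and to 46.8 to 2291 CPM in the other 5 mutant libraries.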
